A study of Mus musculus with 2 samples.

Results

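Tropomyosins are coiled-coil proteins that lie end to end along actin filaments and control which partners reach the filament. In striated muscle they act with troponin to gate the access of myosin to actin according to calcium, and outside muscle they help to set the stability and the motors of the actin cytoskeleton. The mouse has 4 tropomyosin genes, Tpm1, Tpm2, Tpm3 and Tpm4, and the family makes its many forms through alternative first exons, alternative internal exons and alternative last exons. Long forms begin in the distal first exon, called 1a, and short forms begin in an internal first exon, called 1b. The last coding exon 9a is the striated-muscle end of the protein, where troponin T binds, and 9d is the end used widely outside striated muscle.

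The 4 genes were 4 of the 43346 mouse genes in the tables, and their 46 transcript rows were 46 of 103639. They were taken by symbol, matched to gene identifiers through the GENCODE M21 annotation, and were selected on TPM values of these same 2 libraries seen earlier, so their levels and differences are given as a description. The study sequenced total RNA from limb tissue of B6NCrl mouse embryos at 15.5 days. It holds 1 group, for which the labels name no treatment and no genetic change, in 2 biological replicates that were separate pools of embryos of both sexes. Replicate 1 pooled 78 embryos and replicate 2 pooled 62 embryos, and forelimb and hindlimb are not distinguished in the labels. The library of replicate 1 held 35104685 expected counts, which are estimated read counts, and that of replicate 2 held 41757268. Of these, the tropomyosin genes took 98361 counts (0.28%) in replicate 1 and 86886 counts (0.208%) in replicate 2.

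A limb is a mixture of tissues, and the pools can differ in how much of each they hold. Markers of skeletal muscle, cartilage, epidermis, red cells, fibroblasts and endothelium were all present in both libraries. The 9 skeletal muscle markers summed to 1918 TPM in replicate 1 against 625 TPM in replicate 2, where TPM is a level scaled to library size and corrected for transcript length. All 9 were higher in replicate 1, as were 50.0% of all genes with a mean of at least 1 TPM, and 7 of the 9 were over 2-fold higher (2.47% of all such genes). The 4 cartilage markers summed to 906 TPM in replicate 1 against 956 TPM in replicate 2, and the 4 epidermal markers to 3285 and 3100 TPM. The 3 red cell markers summed to 12299 TPM in replicate 1 against 12487 TPM in replicate 2, and among them the embryonic globin gene Hbb-y had 189.8 and 417 TPM, over 2-fold higher in replicate 2 (1.16% of all genes). Heart markers summed to 6.64 TPM in replicate 1 against 3.32 TPM in replicate 2. In bulk tissue, a different number of cells of a type and a different amount of RNA per cell cannot be told apart. With 1 group of 2 libraries no test between conditions was possible, so each difference below describes these 2 libraries.

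The forms are told apart by the exons they carry, so the exons that distinguish them are shown first. They were read from the GENCODE M21 coding sequences on GRCm38, the build also called mm10, in the 5′ to 3′ direction of the gene. The annotation places Tpm1 (ENSMUSG00000032366) at chr9:67022590-67049406 on the minus strand, Tpm2 (ENSMUSG00000028464) at chr4:43514711-43523765 on the minus strand, Tpm3 (ENSMUSG00000027940) at chr3:90072649-90100902 on the plus strand and Tpm4 (ENSMUSG00000031799) at chr8:72134975-72153142 on the plus strand. The last coding exons are shown because they separate striated-muscle forms from the others. Capitals in each 9a mark the bases that differ from 9d of the same gene, aligned from the first base without gaps.
Tpm1 exon 9a: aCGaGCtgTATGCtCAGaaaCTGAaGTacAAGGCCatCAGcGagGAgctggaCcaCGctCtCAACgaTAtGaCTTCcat
Tpm1 exon 9d: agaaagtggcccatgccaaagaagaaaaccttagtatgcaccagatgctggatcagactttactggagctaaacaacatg
Tpm2 exon 9a: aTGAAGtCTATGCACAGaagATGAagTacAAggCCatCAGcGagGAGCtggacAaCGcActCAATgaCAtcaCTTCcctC
Tpm2 exon 9d: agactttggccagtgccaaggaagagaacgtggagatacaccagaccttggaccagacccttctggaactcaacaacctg
Tpm3 exon 9a: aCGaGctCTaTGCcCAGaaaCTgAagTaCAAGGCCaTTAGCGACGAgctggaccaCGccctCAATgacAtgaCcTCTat
Tpm3 exon 9d: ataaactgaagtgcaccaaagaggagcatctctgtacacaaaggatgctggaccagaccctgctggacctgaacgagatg
Tpm4 exon 9d: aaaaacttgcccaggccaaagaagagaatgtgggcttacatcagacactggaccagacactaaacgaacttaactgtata

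The 9a exons lie at chr9:67029664-67029742 in Tpm1, chr4:43515924-43516003 in Tpm2 and chr3:90091013-90091091 in Tpm3. The 9d exons lie at chr9:67023362-67023441 in Tpm1, chr4:43514782-43514861 in Tpm2, chr3:90099528-90099607 in Tpm3 and chr8:72151742-72151821 in Tpm4, each counted over its coding bases. The striated end was more alike between genes than the 2 ends were within a gene. Exon 9a of Tpm1 and of Tpm3 had the same base at 70 of 79 positions (88.6%), and the pairs of 9a with Tpm2 stood at 82.3% and 83.5%. Within a gene, 9a and 9d shared 34 of 79 positions in Tpm1 (43.0%), 33 of 80 in Tpm2 (41.2%) and 36 of 79 in Tpm3 (45.6%). The 9d exons differed more between genes, with identities between 58.8% and 71.2%. Tpm4 had no annotated 9a.

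The internal exon 6 is shown for Tpm1 and Tpm4, because 6b accompanied 9a in every striated-muscle form that was detected. Capitals in 6b mark bases that differ from 6a of the same gene.
Tpm1 exon 6a: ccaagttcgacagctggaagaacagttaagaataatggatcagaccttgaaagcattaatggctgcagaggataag
Tpm1 exon 6b: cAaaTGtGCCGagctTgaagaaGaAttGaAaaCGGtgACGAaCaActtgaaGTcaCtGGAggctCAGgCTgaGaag
Tpm4 exon 6: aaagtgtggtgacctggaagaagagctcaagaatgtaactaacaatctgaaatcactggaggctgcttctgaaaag

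Exon 6a of Tpm1 lies at chr9:67032466-67032541, its 6b at chr9:67031951-67032026, and the single exon 6 of Tpm4 at chr8:72146452-72146527. The Tpm4 exon matched the 6b exons of the other genes at 71.1% to 73.7% of positions and their 6a exons at 43.4% to 55.3%. Between the 6b exons of Tpm1, Tpm2 and Tpm3 the identity was 73.7% to 76.3%, and between their 6a exons 61.8% to 65.8%.

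All 4 genes were abundant. Tpm1, which encodes the alpha chain, had 853 TPM in replicate 1 against 578 TPM in replicate 2, with a mean of 715 ± 195 TPM (SD, n = 2). It ranked 135 among all genes in replicate 1 and 230 in replicate 2. Tpm2, the gene of the beta chain, had 791 TPM in replicate 1 against 319 TPM in replicate 2 (555 ± 334 TPM, SD, n = 2). Tpm3, the gene of the slow-muscle chain and of widely used short forms, had 460 TPM in replicate 1 against 389.6 TPM in replicate 2 (425 ± 50.1 TPM, SD, n = 2). Tpm4, which is known for short cytoskeletal forms, had 595 TPM in replicate 1 against 548 TPM in replicate 2 (571 ± 33.4 TPM, SD, n = 2). In the order of mean levels, Tpm1 stood first, then Tpm4, Tpm2 and Tpm3. The gap between the means of Tpm1 and Tpm4, of Tpm4 and Tpm2 and of Tpm2 and Tpm3 was each smaller than the SD of 1 gene of the pair. All 4 genes were measured in the same 2 libraries, however, and Tpm1 was above Tpm4 in both. The other neighbours changed places between the libraries. As CPM of expected counts, with no correction for length, the order was Tpm4 (745), Tpm1 (645), Tpm3 (541) and Tpm2 (510.0).

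The order differed between the libraries below Tpm1. In replicate 1 the order was Tpm1, Tpm2, Tpm4 and Tpm3, and in replicate 2 it was Tpm1, Tpm4, Tpm3 and Tpm2. Tpm2 gave 29.3% of the summed tropomyosin TPM in replicate 1 and 17.4% in replicate 2. Tpm4 gave 22.0% in replicate 1 and 29.9% in replicate 2, while Tpm1 gave 31.6% and 31.5%. The difference of each gene was taken as log2 of replicate 1 over replicate 2 after 0.1 was added to each TPM, centred on the median gene. It was 1.29 for Tpm2 (2.44-fold higher in replicate 1), 0.54 for Tpm1 (1.45-fold), 0.22 for Tpm3 (1.16-fold) and 0.10 for Tpm4 (1.07-fold). Among the 15571 genes with a mean of at least 1 TPM, 2.47% were over 2-fold higher in replicate 1, and Tpm2 was the 1 tropomyosin gene among them. Past 1.5-fold the share was 4.87% of all genes, and Tpm2 was again the 1 member, although Tpm1 joined it (0.61) when the spike-ins were used for centring. No tropomyosin gene was over 1.5-fold higher in replicate 2, where 3.12% of all genes were.

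Sorted by form, the differences were unequal. Transcripts were sorted by annotated coding exons into long striated-muscle forms (first exon 1a and last exon 9a), long other forms (first exon 1a with another end) and short cytoskeletal forms (first exon 1b). Of the 46 rows, 6 were long striated-muscle, 8 were long other, 10 were short cytoskeletal and 22 were unclassed, because their coding sequence was incomplete or absent or matched no class. Summed over the 4 genes, long striated-muscle forms had 886 TPM in replicate 1 against 326 TPM in replicate 2, a log2 difference of 1.42 (2.68-fold). Short cytoskeletal forms had 1007 TPM in replicate 1 against 983 TPM in replicate 2, a log2 difference of 0.01. That sum joins forms that differed in both directions, such as Tpm3-201, higher in replicate 2, and Tpm3-202, higher in replicate 1. Long other forms had 644 TPM in replicate 1 against 422 TPM in replicate 2 (log2 difference 0.59, or 0.50 with posterior mean TPM, under 1.5-fold), and unclassed rows had 162 and 103 TPM. The striated-muscle class thus held 32.8% of tropomyosin TPM in replicate 1 and 17.8% in replicate 2, and the short class 37.3% and 53.6%.

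**Figure D1:**
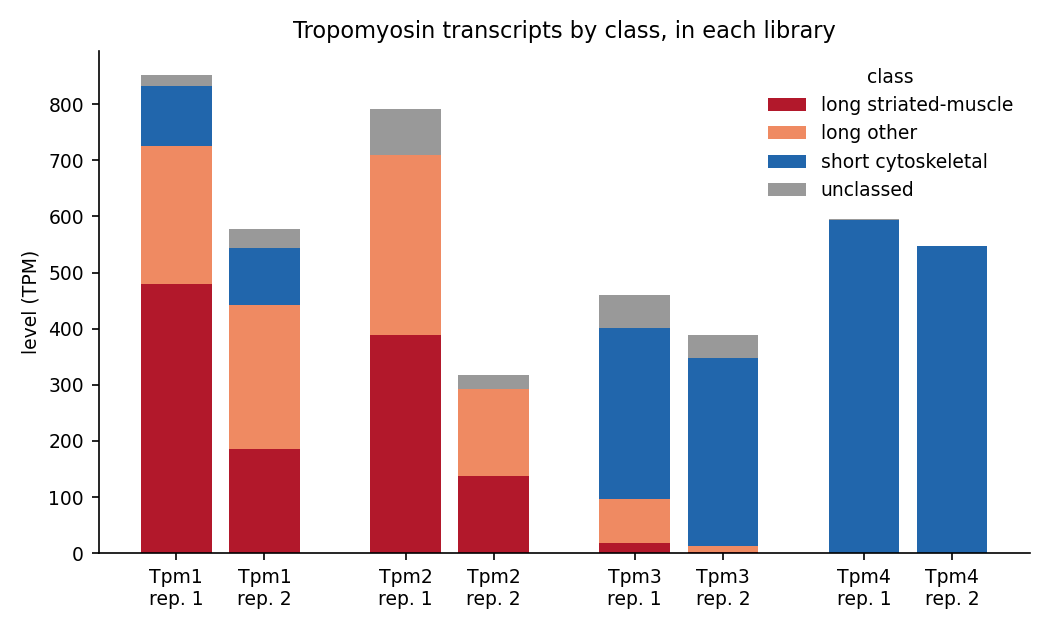
Level of each tropomyosin gene in TPM (vertical axis) in replicate 1 and replicate 2, with each bar split by transcript class and 1 bar per library. The long striated-muscle part of Tpm1 is 480 TPM in replicate 1 against 186 TPM in replicate 2, while Tpm4 is almost wholly short cytoskeletal in both.

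Differences between the libraries were counted over the 27 tropomyosin transcripts with a mean of at least 1 TPM. Of these, 10 were over 2-fold higher in replicate 1, beside 5.27% of the 33605 transcripts of all genes past the same level. Another 2 were over 2-fold higher in replicate 2, beside 3.99% of all transcripts. Past 1.5-fold the counts were 12 with replicate 1 higher (10.7% of all transcripts) and 2 with replicate 2 higher (9.36% of all transcripts). The deposited tables also give an interval for the posterior mean of each TPM, which covers counting and assignment of reads but not the difference between pools. These intervals lay apart with replicate 1 higher for 9 of the 27 (6.86% of all transcripts) and with replicate 2 higher for 2 (5.40% of all transcripts). They overlapped for the other 16. Because the members were chosen with results of these libraries known, nothing is read from these counts against the background.

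Tpm1 was mainly a gene of long forms. Its long striated-muscle forms made up 56.3% of its TPM in replicate 1 and 32.2% in replicate 2, its long other forms 28.7% and 44.4%, and its short forms 12.7% and 17.5%. The leading striated-muscle transcript, Tpm1-205 (exons 1a, 2b, 6b and 9a), had 455 TPM in replicate 1 against 157 TPM in replicate 2. Its intervals were 430 to 453 TPM in replicate 1 and 144 to 160 TPM in replicate 2, so that they were apart, and the TPM of replicate 1 lay just above its own interval. The second striated-muscle transcript, Tpm1-201, has the same coding exons but ends within 9a, and it had 24.8 TPM in replicate 1 against 29.4 TPM in replicate 2 with overlapping intervals. The third, Tpm1-203, which pairs 6a with 9a, was listed at 0 in both.

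The 2 most abundant other long forms of Tpm1 were within 1.5-fold, and 2 minor ones were further apart. Tpm1-213, a long form with 6a and 9d, had 178 TPM in replicate 1 against 202 TPM in replicate 2, and its intervals lay apart with replicate 2 higher (159 to 181 TPM and 185 to 206 TPM). Tpm1-216, a long form with 6b and 9d, had 50.1 TPM in replicate 1 against 43.5 TPM in replicate 2. Tpm1-215, which uses exon 2a, the smooth-muscle alternative to 2b, had 7.87 TPM in replicate 1 against 3.98 TPM in replicate 2 (1.92-fold), with overlapping intervals. Tpm1-210, a long form that ends in 9c, had 5.40 TPM in replicate 1 against 2.23 TPM in replicate 2 (2.32-fold), also with overlapping intervals. Forms with 2a in place of 2b made up 1.09% of the complete long forms of Tpm1 in replicate 1 and 1.02% in replicate 2. That share leaves out Tpm1-202, which carries both 2a and 2b and had 1.14 TPM in replicate 1 against 3.77 TPM in replicate 2.

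The short forms of Tpm1 summed to 108 TPM in replicate 1 against 101 TPM in replicate 2. Tpm1-211, with 6b and 9d, had 83.5 TPM in replicate 1 against 78.7 TPM in replicate 2. Tpm1-209, a short form that ends in 9c, an end known from brain, had 14.8 TPM in replicate 1 against 16.2 TPM in replicate 2. Tpm1-212, with 6a and 9d, had 9.96 TPM in replicate 1 against 6.15 TPM in replicate 2, with overlapping intervals. Of the unclassed Tpm1 rows, Tpm1-217 had 6.36 and 6.90 TPM in replicates 1 and 2, Tpm1-221 had 7.25 and 7.01 TPM, and Tpm1-219, a row of 649 bases without coding sequence, had 4.69 and 16.0 TPM. The intervals of all 3 overlapped.

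**Figure D2:**
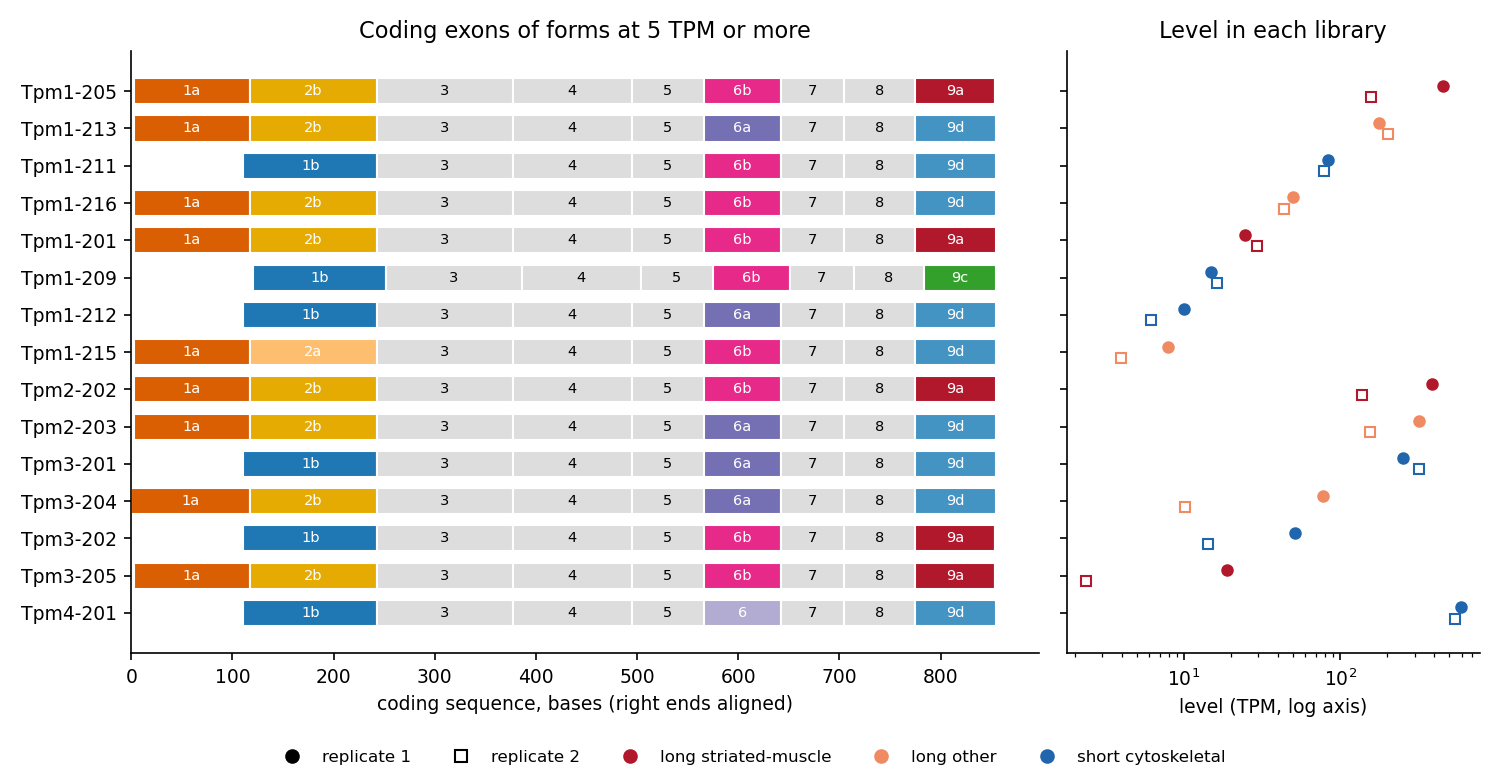
Coding exons of the 15 classed transcripts with a mean of at least 5 TPM (left, length in bases, right ends aligned, shared exons in grey), with the level of each in TPM on a log axis (right, filled circles for replicate 1, open squares for replicate 2, coloured by class). Apart from Tpm1-201, each form that ends in 9a stands at least 2.78-fold higher in replicate 1.

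Tpm2 was made as 2 long forms in these limbs. Tpm2-202, the striated-muscle form with 6b and 9a, had 388 TPM in replicate 1 against 137 TPM in replicate 2 (2.78-fold). Tpm2-203, with 6a and 9d, a form known from smooth muscle and fibroblasts, had 322 TPM in replicate 1 against 155 TPM in replicate 2 (2.04-fold). Both were higher in replicate 1, and the intervals of both lay apart. The striated-muscle share of Tpm2 was 49.0% in replicate 1 and 43.0% in replicate 2, a smaller change in balance than that of Tpm1. Tpm2-201, with 6a and 9a, was listed at 0 in both. The incomplete row Tpm2-206, which covers exons 1a, 2b and 3 in 401 bases, had 80.4 TPM in replicate 1 against 25.7 TPM in replicate 2 and cannot be placed in a class. No short form of Tpm2 was among the rows.

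The forms of Tpm3 ran in both directions between the libraries. Its main transcript, the short Tpm3-201 with 6a and 9d, had 253 TPM in replicate 1 against 321 TPM in replicate 2, with intervals apart (235 to 257 TPM and 308 to 320 TPM). The long striated-muscle form Tpm3-205, known as the slow-muscle tropomyosin, had 18.8 TPM in replicate 1 against 2.35 TPM in replicate 2 (7.61-fold), from 437 and 66.5 expected counts. Its intervals, 15.4 to 21.6 TPM and 1.54 to 3.23 TPM, lay apart. The long other form Tpm3-204 had 77.4 TPM in replicate 1 against 10.1 TPM in replicate 2 (7.47-fold), and its intervals were wide, 25.9 to 91.7 TPM in replicate 1 and 3.28 to 11.6 TPM in replicate 2. Tpm3-204 (2233 bases) and Tpm3-201 (2230 bases) share their coding exons from 3 to 9d and differ in their start. Reads from shared exons were assigned by a model. Whether the opposite differences of these forms came from that assignment was not tested.

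A second short form of Tpm3 differed from the first. Tpm3-202 joins the internal first exon 1b to 6b and to the striated end 9a, and it had 51.8 TPM in replicate 1 against 14.3 TPM in replicate 2 (3.55-fold). Its intervals, 45.1 to 55.4 TPM and 11.3 to 16.5 TPM, lay apart, with replicate 1 higher. It carries the short class by its start and the muscle class by its end, so the short total of Tpm3, 305 TPM in replicate 1 against 335 TPM in replicate 2, combined a form that was higher and a form that was lower in replicate 1. Of the unclassed Tpm3 rows, the retained-intron rows Tpm3-215 (25.6 and 23.4 TPM in replicates 1 and 2) and Tpm3-207 (13.8 and 11.6 TPM) had overlapping intervals. One row, ENSMUST00000062193, absent from GENCODE M21, had 13.6 TPM in replicate 1 with an interval of 0.000441 to 58.7 TPM, and was listed at 0 in replicate 2. Reads of Tpm3 can also match copies elsewhere in the genome, of which Tpm3-rs7 had 5.79 TPM in replicate 1 against 4.83 TPM in replicate 2.

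Tpm4 was a gene of 1 form here. The short Tpm4-201 had 594 TPM in replicate 1 against 547 TPM in replicate 2, which was 99.9% of the gene in each. Its intervals, 572 to 586 TPM and 529 to 542 TPM, lay apart although the levels differed by 1.07-fold. The single other row, Tpm4-202, had 0.63 TPM in replicate 1 against 0.50 TPM in replicate 2.

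The remaining rows were minor. Of the 46 transcripts, 24 had a mean under 5 TPM, none of them above 5.40 TPM in a library, and 10 were listed at 0 in both libraries.

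**Figure D3:**
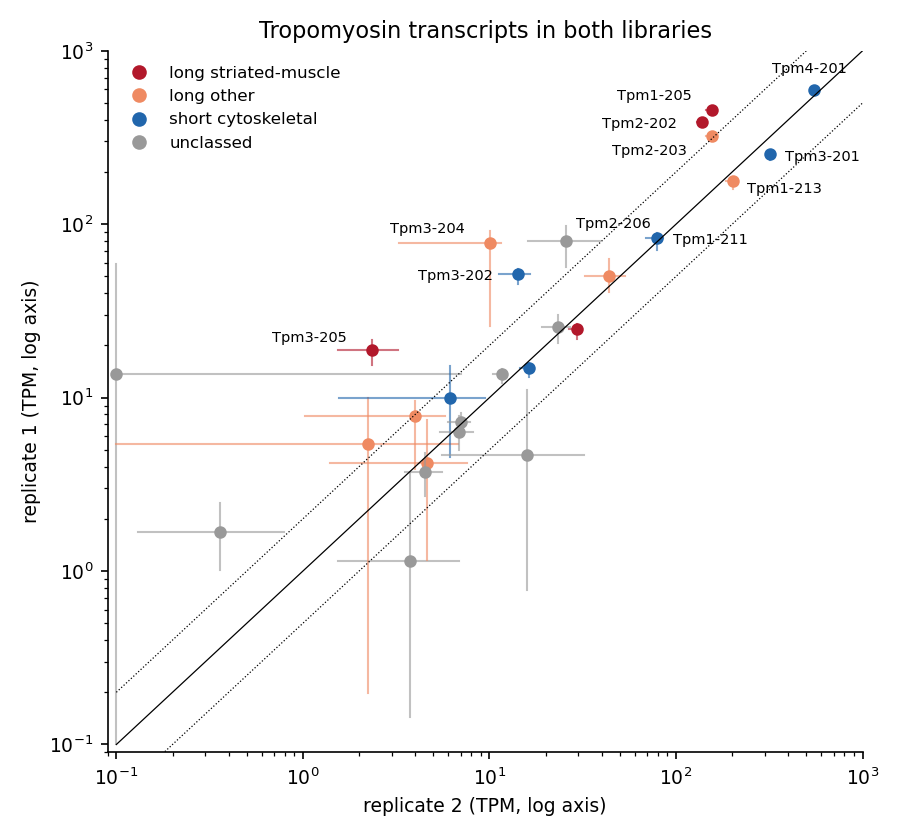
Level of the 27 tropomyosin transcripts with a mean of at least 1 TPM in replicate 1 (vertical, log axis) against replicate 2 (horizontal, log axis), coloured by class, with bars for the deposited intervals and values under 0.1 TPM drawn at 0.1. The solid line marks equal levels and the dotted lines 2-fold differences. Among the points above the upper dotted line are Tpm1-205, Tpm2-202, Tpm2-203, Tpm3-202, Tpm3-204 and Tpm3-205.

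The same transcripts were also summed exon by exon. In Tpm1, complete coding forms with 9a had 480 TPM in replicate 1 against 186 TPM in replicate 2, while those with 9d had 330 TPM in replicate 1 against 338 TPM in replicate 2. In Tpm3, forms with 9a had 70.6 TPM in replicate 1 against 16.7 TPM in replicate 2 (4.15-fold), and forms with 9d had 330 TPM in replicate 1 against 331 TPM in replicate 2. These sums join unlike forms. The 9d sum of Tpm3 adds Tpm3-201, which was higher in replicate 2, to Tpm3-204, which was higher in replicate 1, and the 9a sum of Tpm1 includes Tpm1-201, whose intervals overlapped. In Tpm2 both ends were higher in replicate 1, 9a at 388 and 137 TPM in replicates 1 and 2, and 9d at 322 and 155 TPM. As shares of complete coding TPM, 9a made up 57.5% of Tpm1 in replicate 1 and 34.0% in replicate 2, 54.6% and 46.9% of Tpm2, and 17.6% and 4.79% of Tpm3.

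Exon 6 followed the ends in part. Each detected form with 9a also carried 6b, and the 3 annotated forms that pair 6a with 9a (Tpm1-203, Tpm1-204 and Tpm2-201) were listed at 0 in both libraries. The reverse did not hold, since 6b also occurred with 9d in Tpm1-211, Tpm1-215 and Tpm1-216. Exon 6b made up 77.5% of Tpm1 in replicate 1 and 61.9% in replicate 2, and 17.8% and 4.79% of Tpm3. These shares describe transcripts to which reads were assigned by a model, not reads counted across splice junctions.

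Complete coding forms of Tpm2 all began in 1a and that of Tpm4 in 1b, so their first exon share could not differ. Of Tpm1 and Tpm3, the share of the first exon differed more between the libraries in Tpm3. Forms from the distal exon 1a had 96.2 TPM in replicate 1 against 12.5 TPM in replicate 2 (7.55-fold), which was 24.0% and 3.59% of complete coding Tpm3. In replicate 1, Tpm3-204 gave 77.4 TPM of the 1a sum, with a wide interval of 25.9 to 91.7 TPM. Its coding exons after the start are those of Tpm3-201 in the 1b sum, so this share rests on how reads were assigned. Forms from the internal exon 1b had 305 TPM in replicate 1 against 335 TPM in replicate 2. The row ENSMUST00000062193, whose exons are not known here, is in neither sum. In Tpm1 the 1a forms made up 87.0% in replicate 1 and 81.5% in replicate 2. Because the forms from both starts of Tpm3 differed so unequally between the libraries, the 250 bases before each RefSeq start of that gene are shown, taken from GRCm38.p6 on the plus strand. The distal window is chr3:90072401-90072650 and the internal window chr3:90079271-90079520, and capitals mark the E-box, CANNTG on both strands, the motif bound by myogenic factors among others.
Tpm3 distal: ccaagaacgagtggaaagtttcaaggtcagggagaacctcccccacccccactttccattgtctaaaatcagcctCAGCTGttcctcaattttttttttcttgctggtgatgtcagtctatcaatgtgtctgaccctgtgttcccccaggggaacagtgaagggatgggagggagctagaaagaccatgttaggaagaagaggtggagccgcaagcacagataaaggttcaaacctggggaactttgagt
Tpm3 internal: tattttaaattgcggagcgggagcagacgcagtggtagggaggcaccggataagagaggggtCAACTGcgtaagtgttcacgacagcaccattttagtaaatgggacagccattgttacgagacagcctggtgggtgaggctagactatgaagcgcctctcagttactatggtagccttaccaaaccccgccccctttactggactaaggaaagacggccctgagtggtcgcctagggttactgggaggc

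Each window held 1 E-box, and 66.2% of all 32851 windows of the same length held at least 1. The distal one read CAGCTG, which 13.0% of all windows held, and the internal one read CAACTG. Neither window held CATTCC (12.6% of all windows, both strands) or TATAAA (12.4%), nor a CArG box (1.47%) or MEF2 site (2.92%). Of the windows of the other genes, that of Tpm1 held 1 E-box, which read CAACTG, and 1 CATTCC. That of Tpm2 held 1 E-box, which read CAGCTG, and that of Tpm4 held 0. These are matches of letters and not measured binding.

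Other genes of the thin filament, the actin filament of the sarcomere, were set beside the tropomyosins. All 16 members of that list were higher in replicate 1 (50.0% of all genes), 15 of them over 2-fold (2.47% of all genes), with a median log2 difference of 1.5, against 0 over all genes by centring. Acta1, skeletal muscle actin, had 2862 TPM in replicate 1 against 779 TPM in replicate 2. Actc1, cardiac actin that embryonic skeletal muscle also uses, had 1632 and 584 TPM, and the fast troponin C gene Tnnc2 had 946 and 288 TPM. The slow and cardiac troponin C gene Tnnc1 had 464 TPM in replicate 1 against 227 TPM in replicate 2. At the low end Nrap, an adaptor of forming myofibrils, had 7.23 TPM in replicate 1 against 2.19 TPM in replicate 2. The exception was the cardiac troponin I gene Tnni3, with 5.06 TPM in replicate 1 against 4.67 TPM in replicate 2. The other 10 members, from Tnnt1 (2.38-fold) to Lmod2 (4.23-fold), were all over 2-fold higher in replicate 1. Log2 differences of Tpm1-205 (1.51) and Tpm2-202 (1.48) lay beside the median of that list, and those of Tpm3-204 (2.90) and Tpm3-205 (2.93) above its highest member, Lmod2 (2.08).

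The genes of the cytoskeletal actin filament, on which short tropomyosins act, were close to level. Of 19 members, 10 were higher in replicate 1, beside 50.0% of all genes, none was past 1.5-fold, and the median log2 difference was 0.05. Actb, beta actin, had 5176 TPM in replicate 1 against 4709 TPM in replicate 2, and Actg1, gamma actin, had 1865 and 1894 TPM. The filament-severing cofilin gene Cfl1 had 1630 TPM in replicate 1 against 1490 TPM in replicate 2, and Pfn1, profilin, had 1419 and 1320 TPM. Lowest were Tmod2, a pointed-end cap, with 22.7 TPM in replicate 1 against 17.6 TPM in replicate 2, and Actn1, an actin crosslinker, with 20.1 and 21.2 TPM.

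The smooth muscle list had a median between those of the thin filament and cytoskeletal lists. Of 10 members, 9 passed a mean of 1 TPM, and all 9 were higher in replicate 1 (50.0% of all genes), with a median log2 difference of 0.46. Acta2, smooth muscle actin, had 301 TPM in replicate 1 against 199 TPM in replicate 2, and the light chain gene Myl9 had 231 and 180 TPM. Smtn, smoothelin, had 116 TPM in replicate 1 against 67.4 TPM in replicate 2, and Tagln, transgelin, had 22.5 and 17.8 TPM. Synpo2, an actin-bundling protein, was the 1 member over 2-fold higher in replicate 1 (2.47% of all genes), at 13.2 and 6.46 TPM in replicates 1 and 2. The smooth muscle myosin gene Myh11 had 2.43 TPM in replicate 1 against 1.56 TPM in replicate 2, and Lmod1 did not pass, at 0.83 and 0.38 TPM. The 4 smooth muscle and pericyte markers, some of them on this list too, summed to 317 TPM in replicate 1 against 210 TPM in replicate 2.

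**Figure D4:**
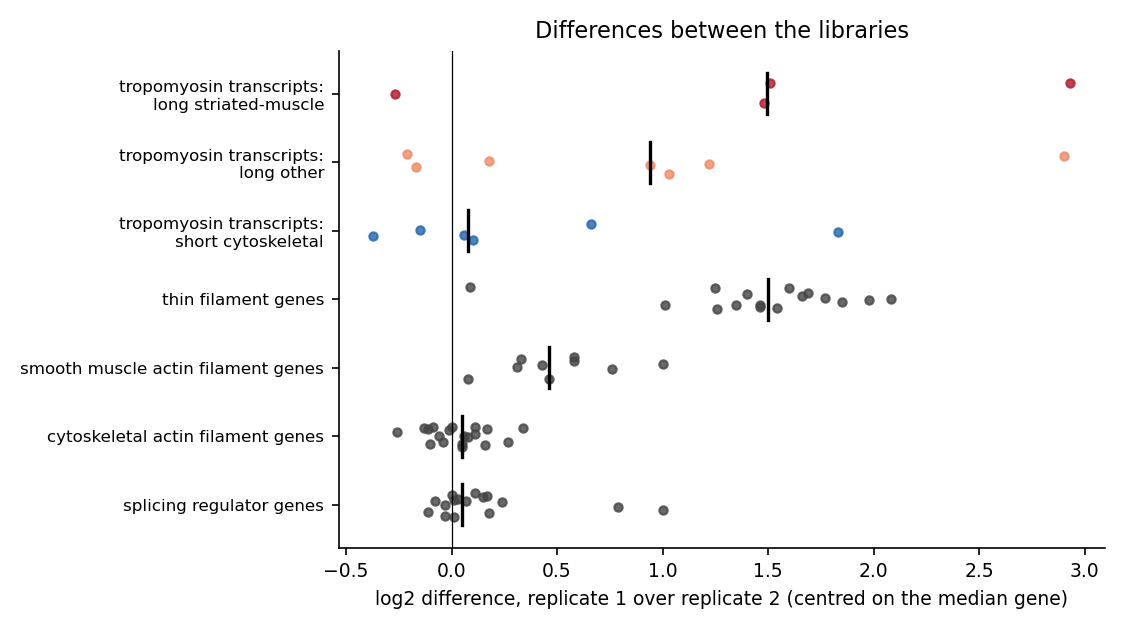
Log2 difference of replicate 1 over replicate 2, centred on the median gene (horizontal axis), for tropomyosin transcripts by class and for genes of 4 lists, each point a transcript or gene with a mean of at least 1 TPM and each bar a median. The thin filament median stands at 1.5 and the cytoskeletal median at 0.05.

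Splicing regulators, some of which act on tropomyosin exons or on muscle exons in general, were also measured. Of 16, 11 were higher in replicate 1, beside 50.0% of all genes, with a median log2 difference of 0.05. Past 1.5-fold, 2 were higher in replicate 1 (4.87% of all genes) and 0 in replicate 2 (3.12% of all genes). Ptbp1, a repressor of muscle exons, had 254.7 TPM in replicate 1 against 249.3 TPM in replicate 2, and Mbnl1, a regulator of muscle splicing in development, had 94.6 and 88.7 TPM. Mbnl2, its paralogue, had 82.3 TPM in replicate 1 against 73.0 TPM in replicate 2, and Celf2 had 56.8 and 49.5 TPM. The lowest were Rbfox1, a muscle and neuron regulator, with 4.23 TPM in replicate 1 against 2.03 TPM in replicate 2, and Rbm20, a regulator of titin splicing, with 3.57 and 2.96 TPM. Rbfox1 was the 1 member over 2-fold higher in replicate 1 (2.47% of all genes). Rbm24, the other member past 1.5-fold, had 5.87 TPM in replicate 1 against 3.30 TPM in replicate 2 (1.73-fold).

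Beside these tropomyosin differences, the skeletal muscle markers were higher in replicate 1 by a median log2 difference of 1.33, and their part in the result was not tested. Ckm, muscle creatine kinase, had 529 TPM in replicate 1 against 88.0 TPM in replicate 2, and Myog, a myogenic factor, had 192 and 96.3 TPM. No skeletal muscle marker was at 0 in a library.

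The genes whose levels lay nearest to each tropomyosin gene were found by the distance between log2(TPM + 0.1) values over the 2 libraries. Nearest to Tpm2 were 2 genes of fast muscle, Tnnc2 at a distance of 0.297 and Mylpf, the fast regulatory light chain, at 0.301, followed by Dlk1 at 0.653. Mylpf had 972 TPM in replicate 1 against 330.0 TPM in replicate 2. Nearest to Tpm1 were Maged2 (0.218), Postn (0.266) and Cdkn1c (0.311), to Tpm3 Slc25a4 (0.045), Atp5d (0.066) and Anxa5 (0.066), and to Tpm4 Psmb6 (0.016), Cox8a (0.048) and Rcn3 (0.049). Over 2 libraries such a distance compares 2 levels only.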

How the data were processed

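Total RNA of embryonic limb was measured in 2 libraries of 1 group. Per the labels, RNA was extracted by the Ambion mirVana method, RNA over 200 nt was kept, 10 ng entered each library and spike-ins were added; the assembly was mm10. GENCODE M4 was the gene annotation, per the notes supplied with the data and not the labels. For the aligner and the counter, a name is not given in the sources used here. The authors deposited expected counts, which need not be whole, per gene and per transcript. The deposited TPM and posterior mean TPM correct for length and library size, and were scaled over genes, spike-ins and rows with numeric identifiers together. The deposited FPKM values served as an alternative. The deposited score columns hold the bounds of an interval around the posterior mean TPM, so a TPM can lie outside it. The deposited percent column is the share of a gene's output per transcript, and shares computed here differed from it by at most 0.005 percentage points.

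Symbols, exons and biotypes came from GENCODE M21, matched on identifiers without versions: all 4 genes and 45 of 46 transcripts matched, all 45 with the length in the tables. Long and short forms had to start in 1a or 1b and to have the full coding length of their class within 5 codons. Exon sequences were read from the GENCODE M21 transcript sequences, and start windows from RefSeq (GRCm38.p6). Log2 differences used a pseudocount of 0.1 and were centred on the median gene with a mean of at least 1 TPM, a shift of 0.02. A gene with 0 counts could have had up to 3 counts, 0.0855 CPM in replicate 1 and 0.0718 CPM in replicate 2, which covers counting error only. No p-value is given. Rounded expected counts with at least 10 in each library were scaled by TMM in edgeR 4.0.16 (R 4.3.3) as an alternative. Other steps used Python 3.11.15, numpy 2.4.6, pandas 2.3.3 and matplotlib 3.10.9, and were tested on simulated data. The members, the gene lists and the tests were chosen with earlier results of these data known. Named were all 4 genes, every transcript with a mean of at least 5 TPM, the 4 highest and 2 lowest genes of each list, and the 3 nearest genes of each member. List genes over 2-fold apart were also named, except that most of those in the thin filament list were given as a count and range. Ckm, Myog, Hbb-y, Rbm24, Tpm1-202, Tpm1-203, Tpm1-204, Tpm1-210, Tpm2-201, Tpm4-202 and Tpm3-rs7 were added after their values were seen.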

Additional observations from a re-analysis of the deposited data

How the results depend on the processing

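No paired analysis was possible because the study has 1 group. Of 265 alternatives, 224 left the value within the spread of the libraries, within 1.5 times a count or on the same side of 1.5-fold, and none turned the direction of a difference past 1.5-fold. Part of the 224 could not come out otherwise. With 2 libraries, either value always lies within their SD of the mean, so leaving out a library could not move a result. Shares by FPKM or by the deposited percent column are the TPM shares in another form. The difference of short forms of all 4 genes, 0.01 on the log2 scale, was -0.03 with posterior mean TPM. The higher level of long striated-muscle forms in replicate 1 held in Tpm1, Tpm2 and Tpm3 under each pseudocount, scaling and unit tried. Beyond the change of unit, the cause of the changes below was not tested. FPKM is another unit for the same levels. In it the mean was 460.0 for Tpm1, 368 for Tpm4, 355 for Tpm2 and 273 for Tpm3, the same order as in TPM. As CPM of expected counts, with no correction for length, the mean was 745 for Tpm4, 645 for Tpm1, 541 for Tpm3 and 510.0 for Tpm2. The order of the genes in CPM thus differs from that in TPM. Centred on the spike-ins in place of the median gene, Tpm1 differed by 0.61 on the log2 scale and so passed 1.5-fold. The long other forms of all 4 genes, at 0.59 close to the 1.5-fold line, fell under it with posterior mean TPM (0.50) and with CPM (0.56). The long striated-muscle share of Tpm2 was 64.4% by expected counts and 50.7% without unclassed rows, and its long other share was 33.5% by expected counts. Expected counts are not corrected for length, and Tpm2-202 has 2098 bases where Tpm2-203 has 1164. The short share of Tpm4 was 99.8% with posterior mean TPM and 100% by expected counts, with protein coding transcripts alone, with rows of at least 1 TPM in both libraries, or without unclassed rows. The long other share of all 4 genes was 22.9% with posterior mean TPM, 19.9% by expected counts, 24.3% with protein coding transcripts alone and 24.9% without unclassed rows. Leaving out a library gives the value of the other, as printed for each result, and moves the striated-muscle share of Tpm1 between 32.2% and 56.3%. The share of all genes over 2-fold higher in replicate 1 was 1.19% at a minimum of 10 TPM and 5.35% with no minimum. Depth limits forms of few counts, such as Tpm3-205 with 66.5 expected counts in replicate 2, and Tpm3-204 had a wide interval even with 3685 expected counts in replicate 1.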
